A study of Homo sapiens with 2 samples.

Results

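Pseudogenes are copies of genes that have lost the ability to make the protein or RNA of their parent. Processed copies arose when a messenger RNA was reverse transcribed and inserted elsewhere in the genome, so they lack the introns of the parent, whereas unprocessed copies arose by duplication of genomic DNA and can keep an intron structure. Highly expressed housekeeping genes, such as those for ribosomal proteins, translation factors, keratins and glycolytic enzymes, have left many processed copies, and a short read from the messenger RNA of the parent can match the copy just as well. The loci described here are all rows of the deposited gene files whose gene type contains the word pseudogene, that do not lie on chromosome Y and that hold at least 50 reads summed over both libraries. There were 1414 such loci among 8961 pseudogene rows outside chromosome Y and 36953 gene rows in all, or 15.8% of the pseudogene rows. A further 310 pseudogene rows lay on chromosome Y and were left out.

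The study compared MIP101, a human colorectal cancer cell line from a liver metastasis that is sensitive to 5-fluorouracil (5-FU, a uracil analog used against this cancer), with MIP/5FU, a single resistant clone selected from MIP101 by passage in rising drug. MIP/5FU had a 10-fold higher IC50 and was maintained in 5 µM 5-FU, while both lines grew without drug for about 48 hours before RNA was taken. Polyadenylated RNA was sequenced from 1 library of each line, so replicates do not back any of the differences below, and as MIP/5FU is 1 clone, a feature of that clone and a feature of drug resistance cannot be told apart. Gene reads numbered 200141071 in MIP101 against 109693681 in MIP/5FU. Where values come in pairs below, that of MIP101 is given first. All ratios are MIP/5FU over MIP101 on the log2 scale, computed from each locus's share of gene reads after adding 0.5 reads, and each interval is a 95% interval that covers counting error only. Reads copied by PCR and not tagged by molecule repeat one another, which makes the real error larger than these intervals. Of 11 symbols listed for intestinal epithelial markers 10 were in the files. The other, EPCAM, is a newer symbol of TACSTD1, which was among the 10. Of these, 9 in MIP101 against 8 in MIP/5FU reached a level of 1 read per kilobase per 1000000 gene reads. Of 6 hepatocyte markers 1 did so in each line, with a summed level of 2.97 and 1.91, and of 5 blood and 5 fibroblast or endothelial markers none did.

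The minimum of 50 reads cut through a continuous range. There were 186 pseudogene rows with 40 to 49 reads and 141 with 50 to 59, 3676 had no read in either library, and the median over the loci kept was 154 reads. Only 139 loci had 1000 reads or more. The smallest count of a locus was 5 reads in MIP101 against 3 in MIP/5FU, so none was at 0 in either line. Together the loci held 1483539 reads in MIP101 against 1051652 in MIP/5FU, which is 0.741% and 0.959% of gene reads. By chromosome, 243 loci lay on chromosome 1, 142 on chromosome 6, 110 on chromosome 9 and 99 on chromosome X.

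How far a read can separate a copy from its parent can be seen in part from the sequences. The windows below are 90 bases of the copy aligned to the coding sequence of the parent. They come from transcripts of GENCODE release 29 (genome build GRCh38) matched to the loci by Ensembl identifier. Each is the first stretch of that length without a gap, so it does not stand for the whole copy. They are shown because the results on levels and ratios below turn on these loci, and capitals mark the bases at which copy and parent differ. The copies of EEF1A1, TOMM40 and MST1 differ from the parent in few or no bases of the window, and the copy of RPL23 in more. The reads were pairs of 42-base or 36-base ends.
EEF1A1P5: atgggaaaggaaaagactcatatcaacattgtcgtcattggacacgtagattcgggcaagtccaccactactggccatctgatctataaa
EEF1A1P12: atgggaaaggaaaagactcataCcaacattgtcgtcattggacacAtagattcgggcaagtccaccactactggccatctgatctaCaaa
EEF1A1: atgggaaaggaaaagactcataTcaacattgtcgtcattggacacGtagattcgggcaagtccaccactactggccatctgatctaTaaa
RPL23P2: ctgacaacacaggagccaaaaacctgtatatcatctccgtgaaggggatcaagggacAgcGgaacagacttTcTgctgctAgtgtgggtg
RPL23: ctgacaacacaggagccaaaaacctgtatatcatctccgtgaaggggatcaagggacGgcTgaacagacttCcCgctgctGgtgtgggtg
TOMM40P4: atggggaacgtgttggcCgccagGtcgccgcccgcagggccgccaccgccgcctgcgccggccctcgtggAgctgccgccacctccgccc
TOMM40: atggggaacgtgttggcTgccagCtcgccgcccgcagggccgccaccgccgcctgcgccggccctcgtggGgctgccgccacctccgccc
MST1P2: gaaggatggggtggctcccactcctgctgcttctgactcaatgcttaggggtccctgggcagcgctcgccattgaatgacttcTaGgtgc
MST1: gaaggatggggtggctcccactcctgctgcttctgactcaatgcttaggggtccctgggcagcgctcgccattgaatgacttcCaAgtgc

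In these windows EEF1A1P5 had 0 mismatches to EEF1A1, a translation elongation factor that brings aminoacyl-tRNA to the ribosome, and EEF1A1P12 had 3. TOMM40P4 had 3 mismatches to TOMM40, the channel of the outer mitochondrial membrane through which proteins are imported, and MST1P2 had 2 to MST1, which encodes macrophage stimulating protein. RPL23P2 differed from the ribosomal protein gene RPL23 at 5 bases. The window of RPS9P1, which is not printed, differed from RPS9 at 10 bases. Over the best aligned stretch of the transcripts the identity to the parent was 99.7% for EEF1A1P5, 94.3% for EEF1A1P12, 88.2% for RPS9P1, 92.2% for RPL23P2, 95.8% for TOMM40P4, 91.2% for KRT18P64 and 97.7% for MST1P2. The share of 42-base words of the copy that also occur in a protein-coding transcript of another gene was 87.5% for EEF1A1P5 and 3.32% for RPS9P1.

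By type, the files call 727 loci pseudogene, without saying how they arose, 501 processed_pseudogene, 71 unprocessed_pseudogene, 57 scRNA_pseudogene and 46 rRNA_pseudogene. The remaining 12 were 5 snoRNA, 3 immunoglobulin, 2 snRNA, 1 tRNA and 1 misc_RNA pseudogenes. Levels are given as reads per kilobase of locus per 1000000 gene reads. The median level was 46.9 in MIP101 against 64.0 in MIP/5FU for rRNA pseudogenes, 1.18 and 1.25 for loci typed only pseudogene, 1.27 and 1.47 for scRNA pseudogenes, 0.628 and 0.647 for unprocessed and 0.505 and 0.509 for processed pseudogenes. Among the loci kept, the rRNA pseudogenes were thus far above the other types in both lines. Processed copies were the lowest of the 5 large types. The minimum of reads asks for a higher level in a shorter locus, so it can shape this order. Median lengths were 258 bases for rRNA, 264 for scRNA, 582 for loci typed only pseudogene, 862 for processed and 931 for unprocessed pseudogenes. The rRNA and scRNA medians were far apart at like length. Whether the order of the other types holds without the minimum was not tested. The median log2 ratio was 0.39 for rRNA, 0.17 for unprocessed, 0.13 for both scRNA and untyped and -0.01 for processed pseudogenes. One exon block was annotated in 665 loci and several in 749.

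**Figure D1:**
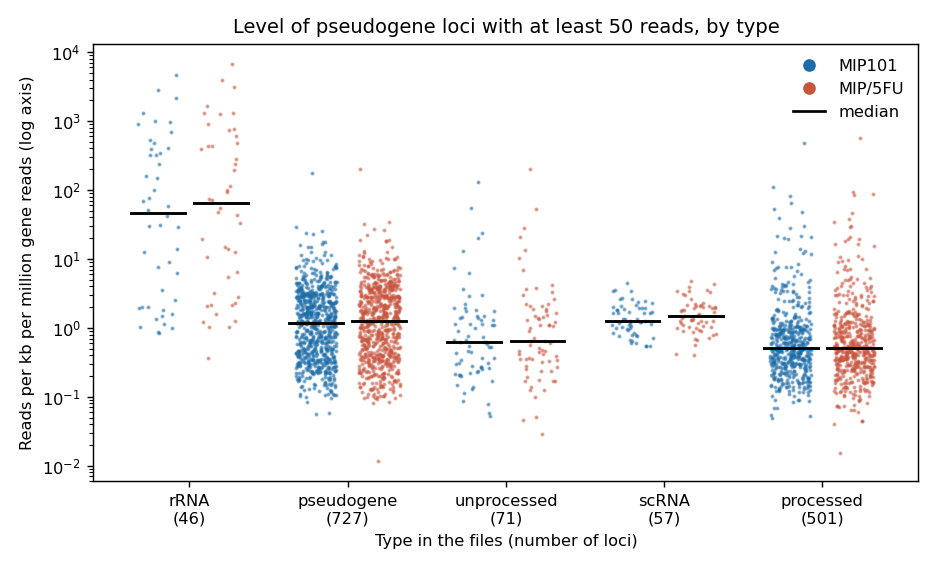
Level of each locus in reads per kilobase per 1000000 gene reads (log axis) for the 5 large types, with MIP101 in blue, MIP/5FU in red and black bars at the medians. The 46 rRNA pseudogenes reach a median of 46.9 in MIP101 against 64.0 in MIP/5FU, while the median of the 501 processed pseudogenes is 0.505 and 0.509.

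Most of the reads fell on rRNA pseudogenes, short genomic fragments that resemble ribosomal RNA. These 46 loci, of 338 such rows outside chromosome Y, held 1042190 reads in MIP101 against 787794 in MIP/5FU, which is 70.3% and 74.9% of the reads of all 1414 loci and 0.521% and 0.718% of all gene reads. Their sum was 1.38-fold higher in MIP/5FU, and 43 of the 46 had a ratio above 0, with a median of 0.39. The 19 loci with 10000 reads or more all lay between 0.20 and 0.64. AC098691.2 on chromosome 1, 366 bases long, had 208391 reads in MIP101 against 160160 in MIP/5FU, a ratio of 0.49. AC116340.3 on chromosome 5, 203 bases long, had 186610 and 150171 reads, which per length is the highest level of any pseudogene locus, at 4593 and 6744. These 2 loci held 37.9% and 39.4% of the reads on rRNA pseudogenes. Without the rRNA pseudogenes, the remaining 1368 loci held 0.221% of gene reads in MIP101 against 0.241% in MIP/5FU.

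Genes of ribosomal RNA itself did not all have the same ratio. Of the mitochondrial rRNA genes, ENSG00000210082 had 1438364 reads in MIP101 against 1044477 in MIP/5FU, a ratio of 0.41, and ENSG00000211459 had 450258 and 203633, a ratio of -0.28. An SSU_rRNA_5 gene placed on the mitochondrial chromosome, ENSG00000223073, had 10417 and 13830 reads, a ratio of 1.28. Of rRNA genes placed elsewhere, an SSU_rRNA_5 gene on chromosome X had 1491 and 2086 reads, a ratio of 1.35. A 5_8S_rRNA gene on chromosome 16 had 1145 and 927 reads, a ratio of 0.56. Other SSU_rRNA_5 genes were at 0.38 with 804 and 573 reads (NT_113958) and at -0.40 with 224 and 93 reads (chromosome 2). Polyadenylated RNA was selected, and whether the amount of ribosomal RNA that passed the selection differed between the libraries was not tested. The rRNA pseudogenes were nearly all masked as repeats: the largest unmasked share was 17.7%, and 30 of the 46 were listed with 1 unmasked base. Among them, AC116316.4 on chromosome 4 stood apart with 65 reads in MIP101 against 243 in MIP/5FU, a ratio of 2.76 (2.37 to 3.19). Although its reads were more in MIP/5FU, they covered less of its 178 bases there, 56.7% against 86.5% in MIP101. The rise was therefore not spread over the whole locus, which also overlaps the gene SORCS2.

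A run of 7 unprocessed pseudogenes at the start of chromosome 1 (hg18 coordinates 554305 to 560165, 5861 bases) was also read deeply in parts. This stretch is known as a nuclear copy of mitochondrial DNA. RP5-857K21.11, at the end of the run, had 14063 reads in MIP101 against 12193 in MIP/5FU, levels of 128 and 203 and a ratio of 0.66 (0.63 to 0.70). RP5-857K21.6 had 7289 and 4694 reads and a ratio of 0.23 (0.18 to 0.29). RP5-857K21.9, at the other end, had 107 and 149 reads and the highest ratio of the run, 1.34 (0.98 to 1.72). Members of the run were therefore far apart in both reads and ratio, and all 7 were above 0. Summed, they held 24378 and 19479 reads, a ratio of 0.54 (0.52 to 0.57), and 5.52% and 7.38% of the reads on pseudogene loci other than rRNA. Among 13 protein-coding genes of the mitochondrial chromosome 3 were listed at 0 reads in both lines, and the 10 with reads had ratios from 0.23 to 1.14 with a median of 0.85. Whether reads of the run came from mitochondrial transcripts was not tested.

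Outside those groups the highest levels belonged to single loci. AC107983.4, a processed pseudogene of 210 bases on chromosome 17, had 20076 reads in MIP101 against 13080 in MIP/5FU, levels of 478 and 568 and a ratio of 0.25 (0.22 to 0.28). AC005000.2 on chromosome X had 35238 and 21628 reads, levels of 178 and 199.8 and a ratio of 0.16 (0.14 to 0.19). Its Ensembl identifier belongs in GENCODE 29 to SUMO2, a small ubiquitin-like modifier gene that lies on another chromosome. RP1-159A19.3 on chromosome 1, 192 bases long, had 4173 and 1999 reads, levels of 109 and 94.9 and a ratio of -0.19 (-0.27 to -0.12). RP11-65N13.4 on chromosome 9 had 5657 and 3365 reads, levels of 81.7 and 88.7 and a ratio of 0.12 (0.06 to 0.18). These loci lay on either side of 0. SUMO2P on chromosome 6 had 3622 and 2668 reads, levels of 63.7 and 85.6 and a ratio of 0.43 (0.35 to 0.50). SEC22B on chromosome 1, typed as an unprocessed pseudogene here and named like a vesicle-trafficking SNARE gene, had 7088 and 3823 reads in 5 exons, a level of 54.7 and 53.8 and a ratio of -0.02 (-0.08 to 0.03). Among these 6 loci, reads covered the fewest bases in RP11-65N13.4, at 84.7% and 89.6%. The next 3 by level, RP4-706A16.3, RP11-215A21.2 and RP11-249L21.4, had ratios of -0.18, -0.45 and -0.44, so the highest loci outside the rRNA type did not share a direction.

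Some of the loci are no longer called pseudogenes. Of the 1414 identifiers 434 are in GENCODE 29, and 115 of these lie there on a different chromosome, against 87 of 14066 protein-coding genes, so they were not used for names. Among the 319 that agree, 287 still have a pseudogene type, 20 are noncoding RNAs and 12 are protein coding. RIOX1, an oxygenase that hydroxylates a ribosomal protein, had 6093 reads in MIP101 against 1677 in MIP/5FU, a ratio of -0.99 (-1.07 to -0.92). FJX1, a secreted protein of the four-jointed family, had 1695 and 569 reads and a ratio of -0.71 (-0.85 to -0.57). ZBTB42, a zinc finger protein, had 1046 and 795 reads and a ratio of 0.47 (0.34 to 0.61). EPM2AIP1, which encodes a partner of laforin, had 2138 and 1435 reads and a ratio of 0.29 (0.19 to 0.39). SRGAP2C, a human-specific partial duplicate of the neuronal gene SRGAP2, had 1210 and 410 reads and a ratio of -0.69, next to -0.52 for SRGAP2. RIOX1, FJX1 and SRGAP2C had the lowest ratios of the 12. None of the 12 passed the 2-fold rule given next, although RIOX1 passed it with a ratio of -1.03 when the lines were scaled to a median ratio of 0 and -1.04 with trimmed-mean (TMM) factors.

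For the comparison of the lines, a locus was counted as different when its ratio was at least 2-fold and its interval excluded a ratio of 1. By this rule 42 of 1414 loci, 2.97%, were higher in MIP/5FU and 36, 2.55%, were lower. The background over all genes with at least 50 reads was 3.11% higher and 3.49% lower, and over genes of no pseudogene type 3.12% and 3.57%, and over protein-coding genes 3.03% and 3.61%. The share of pseudogene loci that differed was therefore near or below the background in both directions. Most counted loci were shallow: 24 of the 42 and 23 of the 36 had fewer than 100 reads. The shares at like depth were as follows. With 50 reads and under 200, 4% of the loci were higher and 3.65% lower, against 10.4% and 9.63% of protein-coding genes, and with 200 reads and under 1000 they were 1.88% and 1.18%, against 6.15% and 6.9%. Of the 139 loci with 1000 reads or more, none was counted, against 1.37% higher and 2.1% lower of protein-coding genes at that depth. The median ratio was 0.10 over the loci, with 59.7% above 0, and 0.03 over protein-coding genes, with 53.1% above 0. Within 1.5-fold of equal were 79.1% of the loci and 81.8% of protein-coding genes.

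**Figure D2:**
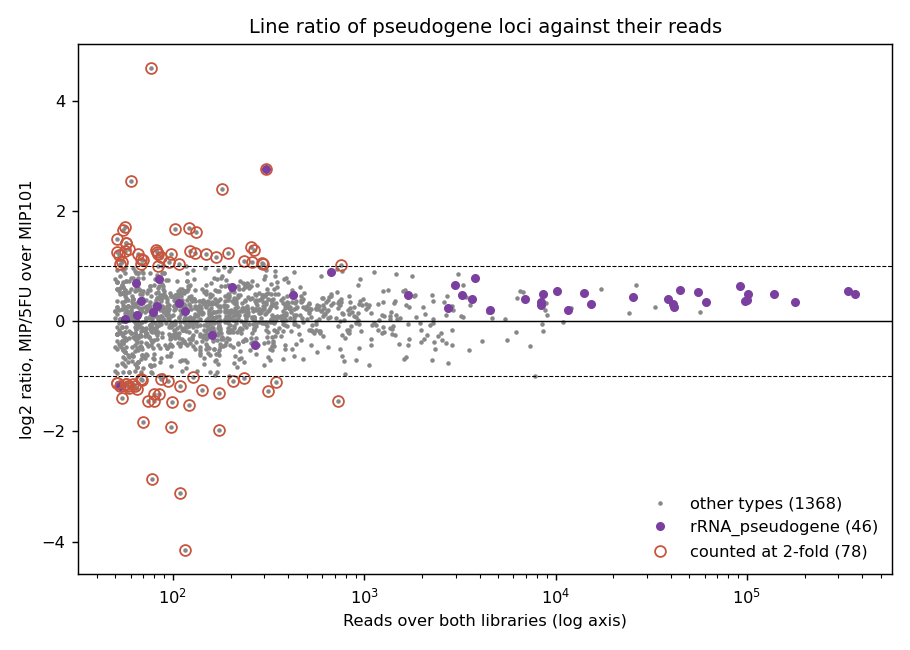
Log2 ratio MIP/5FU over MIP101 of each locus against its reads over both libraries (log axis), with rRNA pseudogenes in purple, open red circles around the 78 counted loci and dashed lines at 2-fold. Counted loci are at the shallow end, and the deepest rRNA pseudogenes form a narrow band between 0.20 and 0.64.

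Among loci with at least 100 reads, the lowest ratio was that of ZC3H11B on chromosome 1 (hg18 217849502 to 217852027), an intronless relative of the zinc finger gene ZC3H11A. It had 113 reads in MIP101 against 3 in MIP/5FU, a ratio of -4.15 with a counting interval of -6.67 to -2.78. RP11-164O23.6, also on chromosome 1, had 103 and 6 reads, a ratio of -3.13 (-4.71 to -2.06), and the 8 reads on its junctions were all in MIP101. RP11-203I16.3 on chromosome 13 had 154 and 21 reads, a ratio of -1.98 (-2.74 to -1.34). Fewer bases of these loci were covered in the shallower MIP/5FU library: the share went from 52.0% to 4.86% in ZC3H11B, from 88.9% to 12.6% in RP11-164O23.6 and from 95.4% to 41.0% in RP11-203I16.3. AL049836.3 on chromosome 14 was the deepest of the lower loci, with 606 and 121 reads and a ratio of -1.45 (-1.75 to -1.17). TOMM40P4 had 256 and 58 reads, a ratio of -1.26 (-1.71 to -0.86), and lies opposite in strand to C2orf27, whose ratio was -1.06. AC073343.6, RP11-345I18.2 and AC116903.3 had ratios of -1.53, -1.31 and -1.26.

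The highest ratio at that depth, after AC116316.4, was that of AC004832.3 on chromosome 22, with 46 reads in MIP101 against 134 in MIP/5FU, a ratio of 2.40 (1.92 to 2.93). Below it lay RP4-580O19.2, with 37 and 65 reads and a ratio of 1.67, and a pair of olfactory receptor pseudogenes, remnants of the family of odorant receptors. OR13E1P had 44 and 78 reads, a ratio of 1.69 (1.14 to 2.26), and OR2W6P had 49 and 83, a ratio of 1.62 (1.10 to 2.17). They were the 2 counted among 12 olfactory receptor loci, a set picked after its values were seen. Both had under 200 reads, where 4% of all the loci and 10.4% of protein-coding genes were counted higher. The other large part of the olfactory receptor set, 9 OR7E loci, had a median of 0.27 with 7 above 0. Its deepest member, OR7E38P, was at 1463 and 669 reads and -0.26 (-0.40 to -0.13). RP11-3J10.7 had 53 and 70 reads and a ratio of 1.27, and RPS9P1 113 and 151 and 1.28 (0.92 to 1.65). Below 100 reads, RP11-484H12.7 on chromosome 13 had 5 reads in MIP101 against 72 in MIP/5FU, a ratio of 4.59 (3.43 to 6.38), the largest of all loci. It was picked out after its values were seen.

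Of the 1414 loci 574 overlap the span of a protein-coding gene, introns included, 270 on the same strand and 304 on the opposite one. The library protocol as described marks no strand, so their reads cannot be told apart from those of the gene. Of the 535 whose overlapping gene had at least 50 reads, 493 had a ratio within 2-fold of that gene. Of all genes with at least 50 reads, 81.3% were themselves within 1.5-fold of equal, which is a narrower limit on a different quantity. Unrelated pairs of genes were not compared, so this count alone cannot show that the loci follow the overlapping gene. The 840 loci without such an overlap had a median ratio of 0.07 and included 28 of the 42 higher and 24 of the 36 lower loci. The 574 with an overlap included the other 14 and 12. Over all 1414 loci the shares were 2.97% higher and 2.55% lower, and over all genes with at least 50 reads 3.11% and 3.49%.

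Parents were assigned by symbol to 241 loci, which share 138 parent genes. A further 1173 loci had no parent by this rule or a parent with fewer than 50 reads. Only 19 of the 241 lie on the chromosome of their parent. The copies were read at a very small part of the level of the parent: the median was 0.224% in MIP101 against 0.185% in MIP/5FU, and 177 of 241 were under 1% in both lines. There were 18 above 10% in both lines and 6 above the parent in both.

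**Figure D3:**
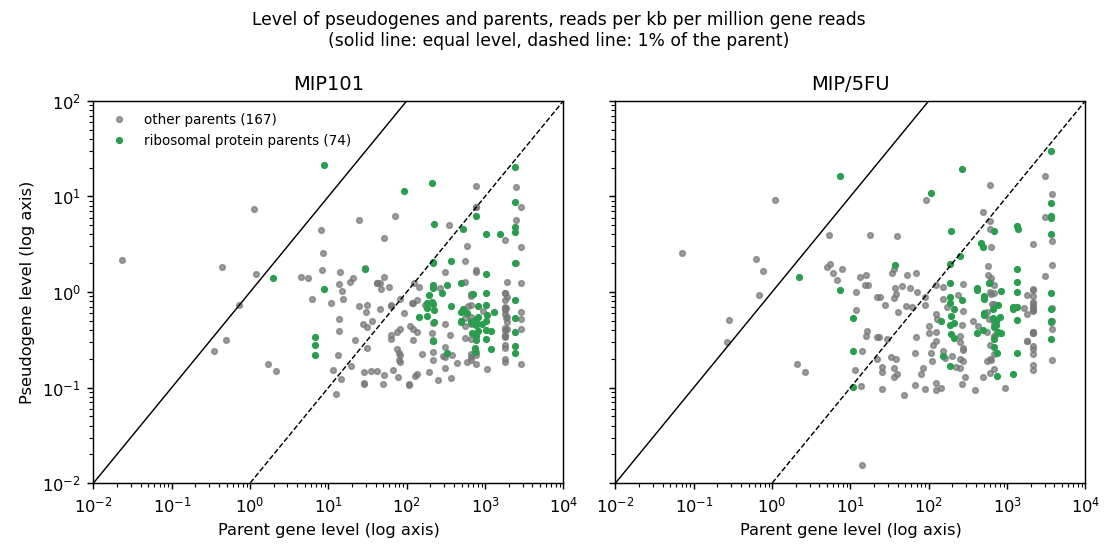
Level of each copy against the level of its parent, in reads per kilobase per 1000000 gene reads on log axes, for MIP101 on the left and MIP/5FU on the right. Ribosomal protein copies are green, the solid line marks equal levels and the dashed line 1% of the parent. Most of the 241 points lie below the dashed line, and 6 lie above the solid line in both lines.

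Copies of ribosomal protein genes, which encode the protein part of the ribosome, were the largest of the named groups with 74 loci of 33 parents. Their median was 0.146% of the parent in MIP101 against 0.151% in MIP/5FU, and 63 were under 1% in both. RPS2L1, a copy of RPS2 on chromosome 20, had 3624 and 2883 reads, 0.860% and 0.821% of the level of RPS2. RPL10P3, within ASTN2 on chromosome 9, stood higher, at 1286 and 983 reads and 6.60% and 7.28% of RPL10. RPL9P7 on chromosome X was above its parent, with 2886 and 1229 reads against 1246 and 572 on RPL9, or 243% and 225% of its level. A ribosomal protein gene is usually among the strongest in a cell, and the median ribosomal parent here held 91485 reads in MIP101, yet 3 parents held fewer than 5000 reads over both libraries. They were RPL9, RPS26 with 172 and 108 reads and RPL7A with 1295 and 1152. RPS26P2 accordingly stood at 72.4% and 65.1% of RPS26. The sources used here do not say how reads that match several loci were assigned, and whether that lowered these 3 parents was not tested.

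Copies of the translation factor EEF1A1 showed the same small shares, from 0.0286% to 1.66% of the parent in MIP101. EEF1A1P5 had 3465 and 1952 reads, 1.66% and 2.14% of EEF1A1, with a ratio of 0.04 (-0.04 to 0.12) where EEF1A1 was at -0.33. EEF1A1P12 had 2072 and 667 reads, 1.01% and 0.747%, with a ratio of -0.77 (-0.90 to -0.64). EEF1A1P27 had 1687 and 652 reads and a ratio of -0.50 (-0.64 to -0.37). EEF1A1P5 thus lay above the ratio of the parent and EEF1A1P12 and EEF1A1P27 below it, and 2 of the 7 copies were above 0, one of which, EEF1A1P5, was at -0.0093 with TMM factors.

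Copies of KRT18 were the most numerous of a single parent, 17 loci, all of them under 1% of KRT18: the shares ran from 0.0103% to 0.191% in MIP101 and from 0.00701% to 0.147% in MIP/5FU. KRT18 itself, which with KRT8 forms the filaments of simple epithelia, had 558421 and 362801 reads. KRT18P1 was the strongest copy at 927 and 462 reads, and KRT8P42 had 196 and 126 reads, 0.0363% and 0.0367% of KRT8. The 28 copies of cytoskeletal and keratin genes had a median of 0.0336% and 0.0308%, the lowest of the role groups with more than 4 loci. The 14 copies of glycolytic enzyme genes came next at 0.0601% and 0.0705%. GAPDHP72 had 1549 and 1162 reads, 0.270% and 0.285% of GAPDH, and LDHAP4 had 1035 and 777, 1.45% and 1.41% of LDHA.

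The 23 copies of chromatin and nucleic acid binding genes had a median of 0.137% and 0.151%, all under 1%. YBX1P10, a copy of the cold shock protein gene YBX1, had 591 and 317 reads, 0.522% and 0.486%. HNRNPA1P12, a copy of a splicing regulator gene, had 311 and 128 reads, 0.520% and 0.443%. NCLP1, a copy of the nucleolin gene, had 277 and 195 reads, 0.111% and 0.151%. Smaller groups were 4 copies of chaperone and cyclophilin genes at a median of 0.0694% and 0.0545%, 4 of mitochondrial and redox genes at 0.373% and 0.279%, and 4 of YWHAZ, a 14-3-3 adaptor protein gene, at 0.143% and 0.101%. PSMD10P, a copy of a proteasome subunit gene, stood at 2.34% and 2.63%, and CYP51A1P3, a copy of a sterol synthesis enzyme gene, at 1.03% and 1.41%. No copy of an HLA gene had a parent assigned. The 78 copies of genes in none of these lists had a median of 1.478% and 1.497%.

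The 6 loci above their parents in both lines were copies of genes with few reads here, at most 1246 in either line. ADCY10P1 on chromosome 6 had 1028 and 676 reads in 6 exons, while ADCY10, the soluble adenylyl cyclase, had 24 and 40, so the copy stood at 9174% and 3620% of the parent level. ZSCAN12P1, a copy of a zinc finger gene, had 436 and 298 reads and 660% and 848% of ZSCAN12. MST1P2 had 1290 and 776 reads in 13 exons against 530 and 185 on MST1, 129% and 222%. HCG9P5 stood at 427% and 354% of HCG9, and PTGER4P2, a copy of a prostaglandin E receptor gene, at 100.2% and 136%. In MIP101, PTGER4P2 had 85 reads and was nearly equal to PTGER4, at a level of 0.726 against 0.724. No interval was computed for the share of the parent level. Just below were RPS26P2, DUSP5P1, SLC2A3P2 at 63.1% and 112%, a copy of a glucose transporter gene, and PIGCP1 at 54.7% and 73.9%, a copy of a gene of glycolipid anchor synthesis.

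The ratio of a copy was next compared with that of its parent. The difference, copy minus parent, had a median of -0.07 over the 241 pairs, with quartiles of -0.38 and 0.26, and 187 pairs were within 1.5-fold. With at least 2-fold and an interval excluding 0, 5 copies (2.07%) were above the parent ratio and 10 (4.15%) below it. No pairs of another kind were compared. RPS9P1 had 113 and 151 reads where RPS9 had 92256 and 44871, so the copy was at 1.28 and the parent at -0.17, a difference of 1.46 (1.10 to 1.82). RPL23P2 had 51 and 57 reads against 91485 and 50525 on RPL23, a difference of 1.02 (0.45 to 1.59). DUSP5P1, a copy of the gene of a nuclear MAP kinase phosphatase, had 120 and 138 reads against 175 and 78 on DUSP5, which the files list as DUSP, a difference of 1.36 (0.83 to 1.91). In these 3 pairs the copy was higher in MIP/5FU while the parent was nearly equal or lower.

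WHAMMP4, a copy of an actin nucleation factor gene listed in the files as WHDC1L1, had 65 and 83 reads and a difference of 1.37 (0.88 to 1.87). BCRP4, a partial duplicate of BCR on chromosome 22, had 20 and 31 reads and a difference of 1.32 (0.47 to 2.22). In the other direction, TOMM40P4 had 256 and 58 reads against 41462 and 23320 on TOMM40, a difference of -1.30 (-1.75 to -0.89). TOMM40P4 overlaps C2orf27, so its reads cannot be told apart from those of that gene. SNX19P, a copy of a sorting nexin gene on chromosome 21, had 73 and 5 reads against 17752 and 9479 on SNX19, a difference of -2.84 (-4.63 to -1.67). ADCY10P1 was at 0.26 and ADCY10 at 1.59, a difference of -1.33 (-2.15 to -0.56) that rests on 64 reads of the parent. The remaining 7 were RPL7AP60 at -2.09, RPL22P12 at -1.39, GLRX3P2 at -1.26, RPL7AP49 at -1.15, TPT1P6 at -1.14, YWHAZP4 at -1.13 and HS6ST1P1 at -1.10. All 7 had at most 70 reads in MIP101 and between 9 and 27 in MIP/5FU. Both RPL7A copies are set against a parent that was itself among the 3 shallow ribosomal parents, and RPL7AP60 overlaps C12orf51.

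**Figure D4:**
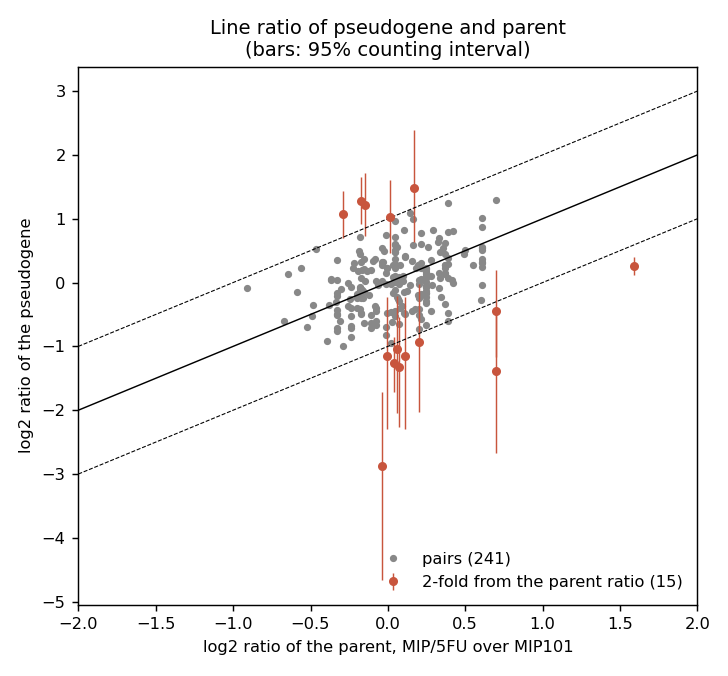
Log2 ratio MIP/5FU over MIP101 of each copy against that of its parent, with 95% counting intervals drawn for the 15 pairs at least 2-fold apart. The solid line marks equal ratios and the dashed lines 2-fold. Of 241 pairs 187 lie within 1.5-fold of the solid line.

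Families of copies were also compared with their parent. RPS2 was at 0.61, and 9 of its 10 copies were above 0 with a median of 0.44. GAPDH was at 0.37, and 6 of its 7 copies were above 0 with a median of 0.23. RPSA was at -0.24 and none of its 6 copies was above 0, with a median of -0.60. EEF1A1 was at -0.33, with a median of -0.43 over its 7 copies. KRT18 was at 0.25, while 8 of its 17 copies were above 0 and their median was -0.05, and YWHAZ was at 0.20 with none of its 4 copies above 0. Over all 12 parents with at least 4 copies, the median copy lay on the same side of 0 as the parent in 10, all but KRT18 and YWHAZ, and in 8 with TMM factors, where NPM1 and RPL21 also parted. Copies of a parent share sequence, so they are not independent.

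The unmasked share, the part of a locus outside masked repeats, had a median of 98.6% over the loci, against 96.0% for protein-coding genes and 100% for pseudogenes with fewer than 50 reads. Behind that median were 26.6% of the loci with less than 50% unmasked, against 30.1% of pseudogenes with fewer than 50 reads and 2.86% of protein-coding genes, and 258 loci with 1 unmasked base. Loci under 50% unmasked held 74.1% of the reads of all loci in MIP101 against 78.3% in MIP/5FU, and 13.1% and 13.7% when rRNA pseudogenes were left out. The median ratio was 0.23 in the 322 loci with less than 10% unmasked, 0.21 in the 54 with 10 to 50%, 0.15 in the 148 with 50 to 90% and 0.00 in the 890 with 90% or more. Loci that are mostly masked thus had positive medians, and loci that are almost free of repeats were centred at 0. Without rRNA pseudogenes the median below 10% was 0.21. RP11-193H22.2 on chromosome 6, 5191 bases long with a single unmasked base, had 1890 and 1438 reads and a ratio of 0.47 (0.37 to 0.57).

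The share of bases covered was compared with that of protein-coding genes in 5 bins of mean coverage per base, each with about as many of the loci. In the lowest bin, 53.6% of the bases of the median locus were covered in MIP101, against 45.4% in protein-coding genes, and in the next bin 74.3% against 73.2%. In MIP/5FU these bins gave 36.7% against 29.3% and 62.5% against 61.8%. In the highest bin, which has no upper limit and holds 283 loci and 10016 protein-coding genes in MIP101, the order was the other way, 96.6% against 99.88% in MIP101 and 95.01% against 99.7% in MIP/5FU. The gap widened for bases covered at least 5 times, to 84.5% against 98.6% and 78.5% against 97.5%. The pseudogene loci are shorter, with a median of 408 bases against 2915 in the highest bin of MIP101, so the bins match neither on length nor, at the top, on depth.

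For 307 loci a GENCODE 29 sequence was at hand, and 1025 pseudogenes with fewer than 50 reads served for comparison. The median identity to the best protein-coding transcript was 92.7% in the loci and 88.9% in the shallower pseudogenes. The median share of 42-base words shared with protein-coding transcripts of other genes was 5.91% against 0.700%, and no such word was found for 51 of 307 and 460 of 1025. The loci were also longer, 879 against 570 bases at the median, which adds reads at equal level. Split by identity, the share of 42-base words went from 0 below 85% identity to 29.7% at 95% and over, while the level as a percent of the parent did not follow one order: 0.838%, 0.0598%, 0.142% and 0.396% in MIP101. The median level of those parents differed too, from 69.4 in the lowest band to 740 in the next.

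Junctions and exon boundaries were read separately from the loci. A processed copy has no introns of the parent, yet its gene model can hold gaps that the annotation placed in the copy. The files define 4977 junctions in 722 of the loci, and 258 of them, in 166 loci, had at least 2 reads. A few held more reads than the whole locus. A junction of AC092725.3 on chromosome 16 had 7025 reads in MIP101 against 3114 in MIP/5FU where the locus had 548 and 243. PTMAP10, a copy of the prothymosin gene PTMA, had 4737 and 2505 on junctions and 376 and 184 on the locus. KRT18P64 had 3053 and 1737 on junctions and 87 and 38 on the locus, and NPM1P50, a copy of the nucleophosmin gene, 2510 and 1311 against 33 and 21.

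Boundary features, which join the end of an exon to the sequence next to it, showed the same excess. Reads on junctions and boundaries together exceeded those of the locus in 87 of the 1414 loci (6.15%), against 111 of 14912 protein-coding genes (0.744%). Those 87 loci held 145467 and 83944 such reads against 14869 and 7480 on the loci, and 75 of them were typed only pseudogene. The 64-base sequences of 4 boundaries are shown because they hold many reads. They were rebuilt from GENCODE 29 transcripts, and capitals mark the longest run that is identical to a protein-coding transcript of another gene. Such runs were sought only in transcripts that aligned to the locus.
RPS15AP1: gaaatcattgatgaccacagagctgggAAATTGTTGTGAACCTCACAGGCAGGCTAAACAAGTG
RPS2P46: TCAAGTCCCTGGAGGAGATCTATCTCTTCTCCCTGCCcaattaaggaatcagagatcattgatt
EEF1A1P12: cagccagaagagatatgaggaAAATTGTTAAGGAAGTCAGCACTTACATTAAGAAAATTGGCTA
YBX1P10: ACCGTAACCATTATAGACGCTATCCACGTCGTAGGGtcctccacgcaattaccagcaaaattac

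The boundary of RPS15AP1 had 4980 reads in MIP101 against 2287 in MIP/5FU, where the locus had 42 and 21, and its run of 37 bases matches RPS15A. That of RPS2P46 had 2923 and 3327 reads with a run of 37 bases of RPS2, and the locus had 845 and 579. That of EEF1A1P12 had 5657 and 3084 reads with a run of 43 bases of EEF1A1. The boundary of YBX1P10 had 1311 and 692 reads with a run of 36 bases of YBX1, whereas that of RPS9P1 had 4 and 1 with a run of 20 bases of RPS9. Over all junctions and boundaries that could be rebuilt, the 7 with 1000 reads or more had runs of 35 to 43 bases, the 5 with 10 to 99 reads 26 to 36, and the 21 with 2 to 9 reads 18 to 50. The 7 deepest rebuilt features thus all held a run about as long as the 36-base reads, and some shallow ones did as well. Some deeper features were not rebuilt. They include a boundary of EEF1A1P27 with 15606 and 5996 reads and a junction of AC092725.3 with 7025 and 3114.

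**Figure D5:**
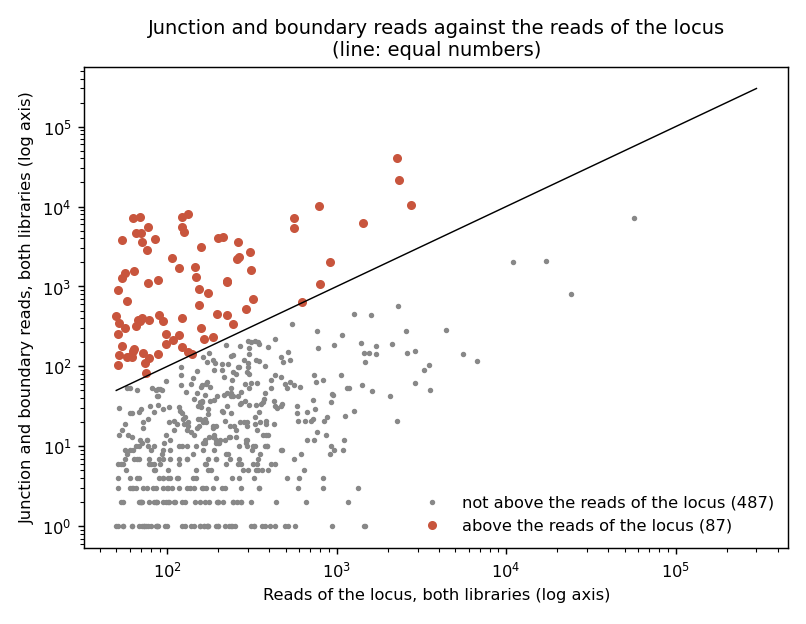
Reads on junctions and boundaries of a locus against reads of the locus itself, both summed over the libraries on log axes, with a line at equal numbers. Of the 574 loci with such reads, 87 (red) lie above the line and 487 (grey) below it.

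Of the 4977 junctions, 1642 join neighbouring exons. At least 2 reads were on 22.5% of those over gaps of 1000 bases or more, on 15.8% of those over 70 bases and under 1000, on 5.37% of those over 10 to 69 bases and on 10.2% of those under 10 bases. Of the 1414 loci 69 had such a junction over at least 70 bases, and 14 had 3 or more. The 69 were 39 loci typed only pseudogene, 25 unprocessed and 5 processed. A wide gap does not by itself tell duplicates from processed copies: PTMAP10, which GENCODE 29 types as processed, had its 4737 and 2505 junction reads over a gap of 528 bases. CROCCP3 on chromosome 1, a duplicate of the gene of the ciliary rootlet protein, had reads on 8 of its 14 such junctions, 19 in MIP101 against 20 in MIP/5FU, and stood at 32.2% and 36.7% of CROCC. AC091565.10 on chromosome 15 had reads on 7 of 22, 453 and 421 in all, with 9500 and 7781 reads on the locus and a ratio of 0.58 (0.54 to 0.62). ADCY10P1 had reads on 5 of 5 wide junctions, SEC22B on 4 of 4, MST1P2 on 5 of 12 and PMS2P4, a copy of a mismatch repair gene, on 4 of 5. All of these except AC091565.10 and SEC22B, which had no parent assigned, stood above 10% of their parent in both lines.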

How the data were processed

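One polyadenylated RNA library of each line was sequenced from random-primed cDNA of 190 to 210 bp fragments after 10 PCR cycles, per the labels' protocols, and no strand marking is described. The deposited gene, junction and boundary files hold read counts per Ensembl 53 feature (build hg18, per the submitters' processing notes), a normalized coverage signal per base made by the authors, and, as deposited, the percent of bases covered at least 1 or 5 times. The deposited Expressed flag was not used for any result. The aligner and the treatment of reads with several matches are not given in the sources used here.

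Ratios compare shares of gene reads after adding 0.5 reads, with exact conditional binomial 95% intervals (scipy 1.17.1). Differences between copy and parent combine both intervals by the square-and-add method. Levels are reads per kilobase of the annotated bases per 1000000 gene reads. With 1 library a line there is no test, p-value or replicate check. The rule on simulated counts recovered 46 of 50 loci at 2.5-fold higher and 36 of 47 at 2.5-fold lower, with 7 false calls in 1225. These counts were drawn with Poisson counting error only, without variation from PCR, library or clone. The false calls therefore do not measure how often the rule errs on the real libraries. Parents were found by removing the pseudogene suffix from the symbol of the file, or from the GENCODE 29 symbol where the chromosome agreed, and by a list of hand pairs, with at least 50 reads in the parent. Sequences are GENCODE 29 transcripts (GRCh38), aligned with blastn 2.17.0 at an e-value of 1e-10, and 42-base words were matched exactly. File coordinates are hg18 and were not converted. Scripts ran in Python 3.11.15 (numpy 2.4.6, pandas 2.3.3, matplotlib 3.10.9) and R 4.3.3, where edgeR 4.0.16 gave trimmed-mean (TMM) factors only.

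Named loci are the 10 of highest level, the 8 highest and 8 lowest counted ratios with at least 100 reads, the 6 largest differences from the parent, those above their parent (up to 8), the 8 with most junction reads, the 4 of each role list with most reads and the 3 with most reads under 50% unmasked. Other names, such as the loci of highest level outside the rRNA type, the chromosome 1 run, the loci now called protein coding, the olfactory receptors, RP11-484H12.7, the families and the boundaries, were chosen after their values were seen. The members and the lists were chosen with earlier results of these data known. Alternatives changed the scaling, minimum reads, fold, parent rule, length, coverage and overlap. Some sequence windows are not reported here.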

Additional observations from a re-analysis of the deposited data

How the results depend on the processing

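The median ratio of 0.10 over the loci was 0.067 after scaling to a median ratio of 0, 0.054 with TMM factors and 0.082 from the normalized coverage. These scalings moved the ratios of all genes by -0.04 (median ratio) and -0.05 (TMM). The counts of 42 higher and 36 lower among 1414 loci became 18 and 13 among 928 with a minimum of 100 reads. With a minimum of 200 they were 8 and 5 among 564, and with no minimum beyond 1 read 174 and 117 among 5285. Over the 1414 loci they were 138 and 100 at 1.5-fold and 4 and 3 at 4-fold. Shares over all genes were not computed at these minimums and folds. The counts were 36 and 41 by median ratio, 35 and 42 by TMM and 40 and 45 by coverage. Which direction had more loci therefore depended on the scaling. With only parents of 1 locus (103 pairs) the median difference from the parent was 0.042 in place of -0.07, and 6 pairs were counted lower in place of 10. Pairs with at least 90% of bases covered, an alternative added after seeing the data, had medians of 0.798% and 0.745% of the parent. The unmasked share was 95.6% at 200 reads or more. The gap to protein-coding genes in the highest coverage bin went from -3.25 to -14.1 percentage points in MIP101 and from -4.68 to -19.0 in MIP/5FU for bases covered at least 5 times, and loci with a read junction went from 166 to 84 at 10 reads. Of 333 values of named loci under the 3 scalings, 326 kept their side of the 2-fold rule, 3 lost the call (RPL23P2) and 4 gained it (RIOX1 and YWHAZP4). Of these values 9, of 4 uncalled loci with ratios within 0.044 of 0, changed sign, and 0 did so while called. Most counted loci had fewer than 100 reads, and 1 library a line allowed no leave-one-out. No paired analysis was possible because each line had 1 library.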
